A study of Mus musculus with 2 samples.

Results

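The cells described here were chosen from the scRNA-seq of sorted liver myeloid cells as Xcr1-positive conventional dendritic cells, by their counts of marker genes. A cell was taken when at most 25% of its counts were mitochondrial, when it had a count of at least 2 of Xcr1, Clec9a, Gcsam, Itgae and Cadm1, Xcr1 or Clec9a among them, and when it had counts of no more than 2 of the 5 mature dendritic cell genes Ccr7, Fscn1, Cacnb3, Apol7c and Nudt17. The rule took 697 of 15384 cells (4.53%), which are called members below. They were 191 of 1723 cells of the ND-fed Egr2fl/fl mouse, 170 of 1590 of the ND-fed Lyz2Cre/+.Egr2fl/fl mouse, 153 of 5885 of the CDA-HFD-fed Egr2fl/fl mouse and 183 of 6186 of the CDA-HFD-fed Lyz2Cre/+.Egr2fl/fl mouse. Because the members were chosen by measured values of these cells, their marker levels are a description and were not tested.

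Type 1 conventional dendritic cells (cDC1) take up material from dying cells through the lectin Clec9a and present it on MHC class I to CD8 T cells, which is called cross-presentation. Their development needs the transcription factors Irf8, Batf3 and Id2, and the chemokine receptor Xcr1 responds to Xcl1 from NK cells and CD8 T cells. In the liver they are a small population beside the Kupffer cells, the resident macrophages, and beside the cDC2, the other conventional dendritic cells, which carry Sirpa and depend in part on Irf4.

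The study asked what the transcription factor Egr2 does in monocyte-derived macrophages of a fatty, inflamed liver. ND is normal diet, and CDA-HFD is a high-fat diet without choline and with a set amino acid content, given for 7 weeks, which causes steatohepatitis. All 4 mice carried Egr2fl/fl, with loxP sites at both copies of Egr2, and 2 of them also carried Cre in the Lyz2 locus, which is active in monocytes, macrophages and granulocytes and so limits the deletion to cells that use or have used Lyz2. Per the methods, mice of the study were males of 6 to 12 weeks when put on CDA-HFD. Liver cells were sorted as CD45.2+, CD11b+ and negative for CD90.2, B220, NK1.1 and SiglecF, so every share below is a share of cells that passed this gate, and CD11b is not a typical surface marker of cDC1. Each group had 1 mouse, so diets and genotypes were compared without replicate mice and without a test, and intervals in parentheses are 95% intervals that cover counting error alone.

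The mice shared 1 library and were told apart by a hashtag, a DNA barcode on CD45.2. Total counts ranged from 27840300 to 90124521 per mouse, and the median cell had 13168 to 16459 counts. Members were deeper than other cells, with a median of 28254, 26520, 24691 and 24423 counts per cell. Here and in all lists of 4 values the order is ND-fed Egr2fl/fl, ND-fed Lyz2Cre/+.Egr2fl/fl, CDA-HFD-fed Egr2fl/fl and CDA-HFD-fed Lyz2Cre/+.Egr2fl/fl. The authors named a further 1392 barcodes (8.29%) doublets, and these were left out.

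The label did not hold for most of the members. When all cells were clustered without the 10 genes of the rule, only 90 of the 697 members (12.9%) fell into the cluster that held the most cells with both Xcr1 and Clec9a, called the Xcr1 cluster below. The other members lay mainly among macrophages and other dendritic cells. The largest number, 238, lay in cluster 4, led by C6 and by the Kupffer cell genes Clec4f, Timd4 and Vsig4. A further 116 lay in cluster 6, led by Tmem119, Olfml3 and Pf4, 83 in cluster 0, led by the cDC2 genes Cd209a and Mgl2, 64 in cluster 11, led by the cell cycle genes Ccna2, Birc5 and Ube2c, and 49 in cluster 3, led by the macrophage genes Mmp12, Spp1 and Gpnmb. Counts of at least 2 Kupffer cell genes were present in 446 members (64.0%). At least 2 markers of a given other cell class were present in 518 members (74.3%), against 18 of the 90 in the Xcr1 cluster. The classes were T and NK cells, B cells, neutrophils, Kupffer cells, hepatocytes and plasmacytoid dendritic cells. Genes of monocytes and of monocyte-derived macrophages were not used for this.

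Members inside and outside the Xcr1 cluster differed in the markers that brought them into the set. The cluster was itself picked by its cells with both Xcr1 and Clec9a, so this is a description. A count of Cadm1, an adhesion molecule, together with Xcr1 alone or Clec9a alone accounted for 498 members (71.4%), and 2 of these 498 were in the Xcr1 cluster. Of the 199 members with any other combination, 88 were in it (44.2%). Cadm1 itself was not particular to the Xcr1 cluster, since 88.6% of the cells of the Clec4f-led cluster 4 and 58.7% of those of the Xcr1 cluster had a count of it. The share of members that lay in the Xcr1 cluster was 2.37% with 2 of the 5 markers, 29.0% with 3, 62.9% with 4 and 71.2% with all 5. In the 248 members with Xcr1 and Cadm1 alone, 82.7% had a single Xcr1 count, whereas members of the Xcr1 cluster with an Xcr1 count had a median of 13. The corresponding medians for Clec9a were 2 and 7.5 counts.

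Low counts of Xcr1 were also found outside dendritic cells. In cluster 2, neutrophil-like and with a median of 3994 counts per cell, 3.11% of cells had an Xcr1 count and 0.518% a Clec9a count. In the Xcr1 cluster, with a median of 24152 counts, the shares were 84.6% and 85.6%. After each cell was thinned to 3000 counts they were 57.7% and 50% in the Xcr1 cluster, 2.04% and 2.61% in cluster 4 and 2.02% and 0.467% in cluster 2. At equal depth the Xcr1 share of cluster 4 was near that of the neutrophil-like cells, while its Clec9a share was higher than theirs. The source of these counts was not tested. Just outside the rule were 810 cells with only Xcr1 or only Clec9a, of which 7 lay in the Xcr1 cluster, and the limit on mature genes left out 7 cells while 11 members had 2 such genes. Of the 104 cells of the Xcr1 cluster, the rule missed 14.

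cDC1 genes that the rule does not use are given as a description of the clusters, since they could take part in the clustering. The list has 20 genes, among them Irf8, Batf3, Naaa, Tlr3 and Wdfy4, and its summed level is given as CPM, the counts per 1000000 counts of the cells added together. Members with both Xcr1 and Clec9a reached 9654 CPM in the Xcr1 cluster and 8340 CPM in the cycling cluster 11, where they were 31 cells. In cluster 4 the 216 members with Cadm1 and one of Xcr1 and Clec9a had 1272 CPM, and the 1182 cells of that cluster outside the rule had 1190 CPM. These 216 members thus differed little from their neighbours in these genes, whereas the 17 members of cluster 4 with both Xcr1 and Clec9a had 3439 CPM. The 14 cells of the Xcr1 cluster that the rule missed had 8101 CPM. The members in the Xcr1 cluster, 24, 11, 15 and 40 cells in the 4 mice, are therefore described apart below. They are Xcr1+ dendritic cell-like by the markers, and they were set apart after the data had been seen.

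**Figure D1:**
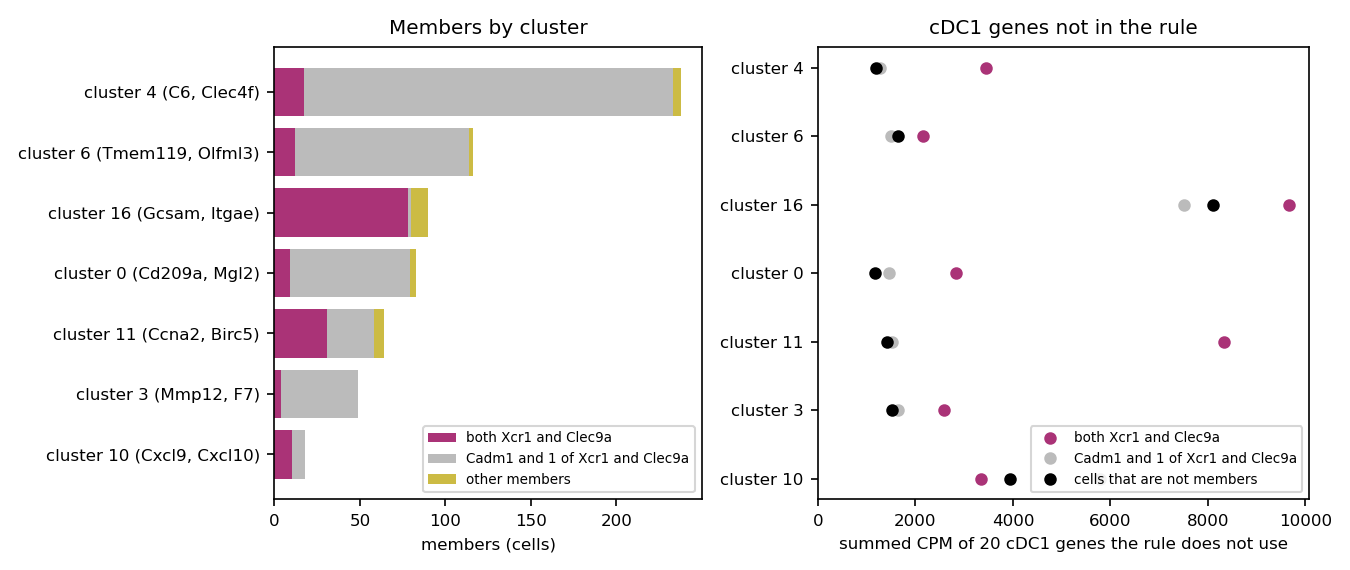
Left, members (cells) in the 7 clusters that held the most of them, split by the markers that brought them in. Right, summed CPM of 20 cDC1 genes that the rule does not use, for members and other cells of each cluster. Members with both Xcr1 and Clec9a stood at 9654 CPM in cluster 16, which is the Xcr1 cluster, and at 8340 CPM in cluster 11, and no higher than 3439 CPM in the other 5 clusters drawn. In cluster 17, not drawn, 4 such members had 7686 CPM. In cluster 10, led by Cxcl9, which is on the list, 8 members with Cadm1 and one of Xcr1 and Clec9a had 5792 CPM. The cells of cluster 10 outside the rule had 3944 CPM.

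Members were a smaller share of the sorted cells in the CDA-HFD-fed mice. They were 11.1% (9.64 to 12.7), 10.7% (9.22 to 12.3), 2.60% (2.21 to 3.04) and 2.96% (2.55 to 3.41) of the cells. CDA-HFD minus ND was -8.49 percentage points (-10.1 to -6.98) in the Egr2fl/fl mice and -7.73 (-9.41 to -6.19) in the Lyz2Cre/+.Egr2fl/fl mice. Lyz2Cre/+.Egr2fl/fl minus Egr2fl/fl was -0.393 points (-2.55 to 1.78) on ND and 0.358 (-0.241 to 0.957) on CDA-HFD, and both intervals include 0. The Clec4f-led cluster 4 gave 105, 131, 0 and 2 of the members, and its cells were 39.9%, 45.3%, 0% and 0.178% of all sorted cells. The part of that cluster in the diet difference of the whole set was not tested.

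The stricter sets did not follow the diet alone. Members with both Xcr1 and Clec9a were 3.83%, 1.32%, 0.493% and 0.889% of the cells, or 66, 21, 29 and 55 cells. Those in the Xcr1 cluster were 1.39% (0.894 to 2.07), 0.692% (0.346 to 1.23), 0.255% (0.143 to 0.420) and 0.647% (0.462 to 0.879). The ND-fed Egr2fl/fl mouse was highest and the CDA-HFD-fed Egr2fl/fl mouse lowest in both sets, with the Lyz2Cre/+.Egr2fl/fl mice between them. For the Xcr1 cluster, CDA-HFD minus ND was -1.14 points (-1.82 to -0.613) in the Egr2fl/fl mice and -0.0452 (-0.618 to 0.372) in the Lyz2Cre/+.Egr2fl/fl mice. Lyz2Cre/+.Egr2fl/fl minus Egr2fl/fl was -0.701 (-1.46 to 0.0358) on ND and 0.392 (0.144 to 0.650) on CDA-HFD.

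Shares of all cells fall when other cells come in, so dendritic cells were also used as the denominator. These were the members, 764 Cd209a-positive dendritic cells (counts of Cd209a and Flt3, none of Xcr1 or Clec9a) and 234 Ccr7-positive mature dendritic cells. Members in the Xcr1 cluster were 23.1% (15.4 to 32.4), 14.5% (7.45 to 24.4), 3.55% (2.00 to 5.79) and 8.23% (5.94 to 11) of the dendritic cells when they alone stood for the members. The difference between diets was -19.5 points (-28.9 to -11.5) in the Egr2fl/fl mice and -6.24 (-16.5 to 1.32) in the Lyz2Cre/+.Egr2fl/fl mice. Between genotypes it was -8.60 (-20.2 to 3.98) on ND and 4.68 (1.48 to 7.88) on CDA-HFD. The Cd209a-positive cells numbered 59, 53, 300 and 352, which were 3.42%, 3.33%, 5.10% and 5.69% of all cells. The number of cells loaded was 3000 from each ND-fed and 9000 from each CDA-HFD-fed mouse.

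**Figure D2:**
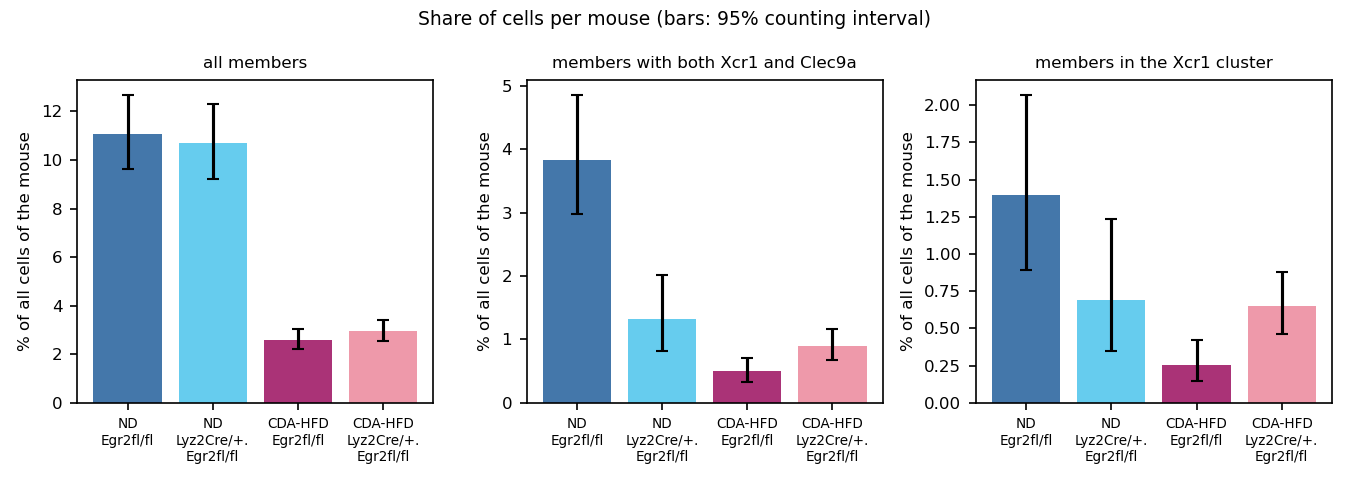
Share of all cells of a mouse (%) taken by all members, by members with both Xcr1 and Clec9a and by members in the Xcr1 cluster; bars are the share of 1 mouse and lines its 95% counting interval. All members stood at 11.1% and 10.7% on ND but at 2.60% and 2.96% on CDA-HFD, whereas members in the Xcr1 cluster were 0.692% and 0.647% in the 2 Lyz2Cre/+.Egr2fl/fl mice.

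Over all members, most Kupffer cell genes were lower in the CDA-HFD-fed mice, and genes of monocyte-derived macrophages differed in both directions. Genes with at least 200 counts over the members were compared, 7693 in all. Past 2-fold in both genotypes were 212 higher on CDA-HFD (2.76%) and 401 lower (5.21%), with 7 of the 8 Kupffer cell genes among the lower. Clec4f, a Kupffer cell lectin, had 4444, 6134, 48.6 and 161 CPM. Timd4, a phosphatidylserine receptor of resident Kupffer cells, had 431, 516, 4.56 and 5.36 CPM. Both were far lower in the CDA-HFD-fed mice. Without the members that had markers of another class, 77 of 2674 genes were higher (2.88%) and 9 lower (0.337%), a setting that removes cells by Kupffer cell genes themselves. Of the 6 genes of monocyte-derived macrophages, Gpnmb, Spp1 and Trem2 were past 2-fold higher and Adgre1, which encodes F4/80, was lower. Gpnmb, a glycoprotein of lipid-associated macrophages, had 5.24, 3.73, 500 and 250 CPM. Adgre1 had 657, 684, 204 and 237 CPM. Outside the list, the elastase gene Mmp12 had 5.62, 4.38, 386 and 195 CPM and was higher in the CDA-HFD-fed mice. In the members that lay in the Xcr1 cluster Clec4f had 13.8, 0, 0 and 0 CPM, lower bounds because low values of Clec4f had been set to 0. Of the 24 interferon-stimulated genes compared, 10 were past 2-fold lower in both genotypes and none was higher. Cluster 10, led by the interferon-induced genes Cxcl9 and Cxcl10, gave 16, 0, 2 and 0 of the members, and its part in these ratios was not tested. In the Xcr1 cluster none of the 6 interferon-stimulated genes compared was past 2-fold in both genotypes, at a median log2 ratio of -0.28 and 0.51.

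Between genotypes, 4 genes of the members were past 2-fold higher in both diets (0.052%) and 6 lower (0.078%). The lower ones in the lists were Egr2, the cytokine gene Tnf and the interferon-induced genes Cxcl9 and Gbp2. Cxcl9 had 286, 83.7, 92.2 and 8.86 CPM and Gbp2 130, 57.4, 47.1 and 17.9 CPM, and the part in this of the 16, 0, 2 and 0 members from cluster 10 was not tested. Tnf had 15.9, 6.36, 52.9 and 21.0 CPM, a ratio of 0.400 (0.253 to 0.616) on ND and 0.397 (0.310 to 0.506) on CDA-HFD. Against the Cd209a-positive dendritic cells of the same mouse, 389 of 9240 genes were past 2-fold higher in the members of every mouse (4.21%) and 133 lower (1.44%). Of the 8 Kupffer cell genes 6 and of the 6 macrophage genes 4 were among the higher, beside 9 of the 16 cDC1 genes compared. Without the members that had markers of another class, 44 of 7057 genes were higher (0.623%) and 72 lower (1.02%). This setting removes cells by Kupffer cell genes, but not by genes of monocyte-derived macrophages. Summed Kupffer cell genes were at 23250, 29922, 5257 and 4806 CPM in the members and at 53.8, 6.35, 49.1 and 0.962 CPM in those of the Xcr1 cluster. These sums are lower bounds, since low values of C1qa, C1qb, C1qc, Cd5l, Clec4f and Vsig4 had been set to 0.

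The members in the Xcr1 cluster carried a cDC1 profile in all 4 mice when set against the Cd209a-positive dendritic cells. Both sets were chosen by genes of these same cells, so the ratios within each mouse describe them, and the sets were not tested against each other over the 4 mice. Of 8712 genes compared, 105 (1.21%) were past 2-fold higher in every mouse and 308 (3.54%) lower. Among the 16 cDC1 genes outside the rule, 14 were higher in every mouse and none lower, with a median log2 ratio of 3.68, 4.30, 3.78 and 4.33, where that of all genes was -0.23, -0.26, -0.11 and -0.13. Of 16 cDC2 genes, 13 were lower in every mouse, at a median of -4.47, -3.72, -3.67 and -4.31; Cd209a is one of them and its difference was fixed by the choice of cells.

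The transcription factors came first. Irf8, on which cDC1 development depends, had 2215, 1914, 1658 and 1911 CPM against 68.7, 108, 51.1 and 48.5 CPM in the Cd209a-positive cells, ratios of 32.3, 17.8, 32.4 and 39.4. No value of one set overlapped the other. Id2, a second factor of the lineage, had 1690, 1556, 1448 and 2032 CPM against 777, 649, 574 and 627 CPM. Batf3, the partner of Irf8, had 214, 308, 300 and 185 CPM against 134, 100, 61.2 and 59.0 CPM and was past 2-fold in 3 of the 4 mice, with a ratio of 1.60 (1.26 to 2.03) in the ND-fed Egr2fl/fl mouse. Irf4, used by cDC2, had a single count in the 90 cells and 42.5, 29.5, 43.9 and 37.6 CPM in the Cd209a-positive cells.

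Genes of uptake, lysosome and cross-presentation were next. Wdfy4, needed for cross-presentation of cell-bound antigen, had 244, 219, 387 and 325 CPM against 80.4, 100, 81.4 and 79.1 CPM. The lysosomal enzyme genes Naaa and Ppt1 were higher by 13.9, 13.9, 18.7 and 14.4 times and by 14.0, 26.1, 21.7 and 23.5 times. Rab7b, a small GTPase of late endosomes, had 562, 432, 349 and 461 CPM against 13.6, 10.5, 8.66 and 10.5 CPM, ratios of 41.5, 41.2, 40.3 and 43.7. The Rab7b ratio was nearly the same in each mouse. Rab43, a GTPase with a part in cross-presentation, was the only one of 20 genes of MHC class I and cross-presentation past 2-fold higher in every mouse, at 186, 197, 109 and 214 CPM against 57.8, 41.0, 50.9 and 52.0 CPM. The immunoproteasome subunit Psmb9 had ratios of 1.89, 2.90, 2.41 and 2.63, its activator Psme1 2.17, 2.97, 2.11 and 1.91 and the peptide transporter Tap2 2.59, 2.69, 2.11 and 1.92, each short of 2-fold in at least 1 mouse. Cybb, a subunit of the NADPH oxidase, was lower, at 15.4, 9.52, 57.3 and 33.7 CPM against 301, 393, 519 and 579 CPM, as was its activator Rac2, with ratios of 0.371, 0.331, 0.396 and 0.366.

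MHC class II genes were shared by both kinds of dendritic cell. None of 12 was past 2-fold higher in every mouse, and the 2 lower ones were Ctss, the protease that trims the invariant chain, and H2-DMb2. H2-Aa had ratios of 0.908, 1.04, 0.724 and 0.771. Ctss had 661, 838, 747 and 644 CPM against 2074, 2112, 2039 and 2236 CPM. Cst3, which encodes the protease inhibitor cystatin C, was higher, with ratios of 4.57, 4.97, 3.65 and 4.20. Flt3, the growth factor receptor of dendritic cells, had 67.6, 82.5, 136 and 140 CPM against 150, 114, 175 and 172 CPM, but a Flt3 count was part of the choice of the Cd209a-positive cells.

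Sensors, chemokine receptors and costimulation separated the sets further. Tlr3, the receptor for double-stranded RNA, had 214, 295, 166 and 154 CPM against 3.61, 7.62, 3.42 and 1.17 CPM. Tlr11, which recognises profilin, had 84.5, 79.4, 27.3 and 71.2 CPM against 17.2, 2.86, 4.03 and 3.85 CPM. Tlr12, its partner, had 66.1, 44.4, 73.6 and 18.3 CPM against 0.904, 0, 0.403 and 0.335 CPM. All 3 receptors were among the 105 of 8712 genes past 2-fold higher in every mouse (1.21%). Of 17 sensing genes, Tlr12 and the scavenger receptor Cd36 were past 2-fold higher in every mouse, and Tlr1, Tlr2, Clec7a, Clec4n, Mrc1 and Axl were lower. Cxcr3, which binds Cxcl9 and Cxcl10, had 92.2, 98.4, 90 and 63.5 CPM against 0.904, 0.953, 0.201 and 1.51 CPM, while Ccr1, Ccrl2 and Cx3cr1 were lower. The costimulatory ligand Cd86 had 151, 137, 175 and 237 CPM against 38.0, 28.6, 40.9 and 39.6 CPM. Btla, an inhibitory receptor, had 253, 222, 235 and 360 CPM against 76.8, 74.3, 73.9 and 112 CPM. Both were higher in each mouse of the Xcr1 cluster. Il1b, an inflammatory cytokine, went the other way, at 197, 219, 319 and 295 CPM against 691, 1041, 2137 and 2343 CPM. No chemokine ligand was past 2-fold higher in every mouse, and Ccl3, Ccl6, Ccl9, Ccl17 and Cxcl10 were lower.

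Among cDC2 and monocyte genes, Itgam had 15.4, 44.4, 19.1 and 14.4 CPM against 204, 246, 236 and 248 CPM; it encodes the CD11b of the sort. Sirpa, a receptor for CD47 and a cDC2 marker, had 0, 3.17, 10.9 and 4.81 CPM against 124, 131, 143 and 134 CPM. Csf1r, the receptor of macrophage colony-stimulating factor, had 16.9, 12.7, 76.4 and 63.5 CPM against 241, 307, 292 and 336 CPM. All 3 genes were among the 308 of 8712 past 2-fold lower in every mouse (3.54%). The genes outside the lists with the highest smallest ratio were Gpr141b, P2ry14, Gm43914, Pdia5, Rtl8c, Fcrla, Fam149a, Gm12551, Rtl8a and Cystm1. P2ry14 is a receptor for UDP-glucose, and Pdia5 is a protein disulfide isomerase. Gpr141b had 134, 108, 65.5 and 102 CPM and in the Cd209a-positive cells 0, 1, 0 and 0 counts. Rtl8a, with most counts of the 10, had 495, 667, 251 and 425 CPM against 28.9, 43.8, 22.2 and 22.1 CPM. The genes with the lowest were Cd300ld, Hpgd, Tmem176b, Cd72, Tmem176a, Gm42674, Wfdc17, Capg, Mcemp1 and Clec4a3, of which Tmem176b had 21.5, 9.52, 46.4 and 14.4 CPM against 600, 518, 697 and 713 CPM.

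**Figure D3:**
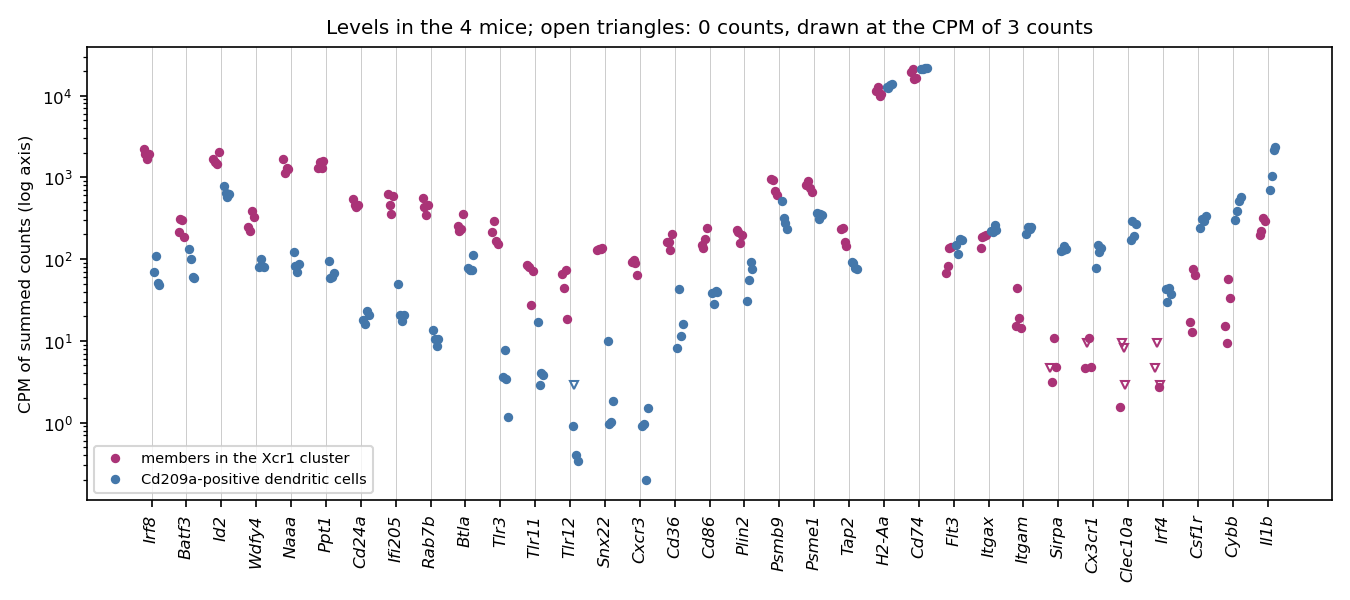
Level of 33 genes, in CPM of summed counts on a log axis, in members of the Xcr1 cluster and in Cd209a-positive dendritic cells; each point is 1 mouse, and open triangles stand for 0 counts, drawn at the CPM of 3 counts. Irf8, Naaa, Ppt1, Rab7b and Tlr3 were higher in the Xcr1 cluster in every mouse, Itgam, Sirpa, Csf1r and Il1b were lower, and H2-Aa and Cd74 lay close together.

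Between the diets, immediate early genes were the listed group with the most genes past 2-fold in the cells of the Xcr1 cluster. Of 2656 genes with at least 100 counts over the 90 cells, 62 were past 2-fold higher on CDA-HFD in both genotypes (2.33%) and 15 lower (0.565%), and the median log2 ratio of all of them was 0.05 in the Egr2fl/fl and 0.11 in the Lyz2Cre/+.Egr2fl/fl mice. The list of immediate early genes, most of which cells switch on within minutes of a stimulus, also holds Egr2 and its corepressors Nab1 and Nab2. Of its 17 genes compared, 6 were higher in both genotypes and none lower, at a median log2 ratio of 0.77 and 1.38. They were Atf3, Fosb, Nr4a1, Nr4a2, Dusp1 and Klf2.

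Atf3, a stress-induced transcription factor, had 30.7, 38.1, 453 and 197 CPM, in 9, 4, 13 and 24 of the 24, 11, 15 and 40 cells. Its CDA-HFD to ND ratio was 14.7 (9.24 to 24.7) in the Egr2fl/fl mice and 5.18 (2.90 to 10.2) in the Lyz2Cre/+.Egr2fl/fl mice. Nr4a1, a nuclear receptor induced by antigen and other stimuli, had 39.9, 57.1, 237 and 267 CPM, a ratio of 5.94 (3.795 to 9.59) in the Egr2fl/fl mice and 4.66 (2.90 to 7.99) in the Lyz2Cre/+.Egr2fl/fl mice. For both genes each CDA-HFD-fed mouse stood above each ND-fed mouse. Fosb, a part of the AP-1 factor, had 18.4, 88.9, 256 and 232 CPM. Dusp1, a phosphatase that ends MAP kinase signals, had 55.3, 44.4, 139 and 243 CPM. Nr4a2, a relative of Nr4a1, had 3.07, 9.52, 81.8 and 147 CPM, from 2, 3, 30 and 153 counts. All 3 were again higher in each CDA-HFD-fed mouse. Hspa1a, the inducible Hsp70 chaperone, had 32.3, 105, 668 and 249 CPM, a ratio of 20.7 (13.2 to 34.1) in the Egr2fl/fl mice and 2.38 (1.65 to 3.53) in the Lyz2Cre/+.Egr2fl/fl mice, and Hspa1b 18.4, 15.9, 300 and 116 CPM. The remaining 7 of the 9 heat shock genes compared were not past 2-fold in both genotypes. Fos had 333, 362, 660 and 1002 CPM and ratios of 1.98 and 2.77, while Egr1 had 217, 156, 180 and 103 CPM and ratios below 1, 0.831 and 0.662.

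Cd209a-positive dendritic cells of the CDA-HFD-fed mice were high in Atf3, Nr4a1 and Hspa1a as well, and in them Atf3 had 164, 164, 1149 and 1090 CPM, Nr4a1 113, 120, 384 and 301 CPM and Hspa1a 98.5, 131, 1436 and 527 CPM. The median share of mitochondrial counts in members of the Xcr1 cluster was 2.29%, 2.00%, 2.04% and 2.25%.

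Beyond the immediate early genes, Csf1r had 16.9, 12.7, 76.4 and 63.5 CPM and a ratio of 4.52 (2.18 to 10.1) in the Egr2fl/fl mice and 5.002 (1.86 to 18.9) in the Lyz2Cre/+.Egr2fl/fl mice. The transcription factor Klf4 had 15.4, 50.8, 81.8 and 134 CPM and a ratio of 5.33 (2.53 to 12.2) in the Egr2fl/fl mice and 2.63 (1.57 to 4.74) in the Lyz2Cre/+.Egr2fl/fl mice. These were the only cDC2 genes with enough counts to compare, and the CDA-HFD-fed mice were above the ND-fed mice in both. The summed genes of monocyte-derived macrophages moved with them in these cells, at 19.97, 31.7, 54.5 and 73.1 CPM, and cells with at least 2 markers of another class were 5 of 24, 1 of 11, 1 of 15 and 11 of 40. Without these cells the log2 ratios in the Egr2fl/fl and Lyz2Cre/+.Egr2fl/fl mice were 2.01 and 2.07 for Csf1r and 2.48 and 1.07 for Klf4. That setting removes no cells by genes of monocyte-derived macrophages, and the part of such RNA in these ratios was not tested. Cd34, a sialomucin known from progenitor cells, had 39.9, 34.9, 196 and 237 CPM, higher in both CDA-HFD-fed mice. The replication genes Mcm3, Mcm5 and Mcm6 were higher too, out of 9 proliferation genes compared. Mcm5 had 38.4, 22.2, 169 and 120 CPM, but in the ND-fed Lyz2Cre/+.Egr2fl/fl mouse all of it came from 1 cell. Cd83, a maturation marker that steadies MHC class II at the surface, had 161, 178, 436 and 326 CPM, with ratios of 2.71 and 1.84. The 10 genes with the largest smaller ratio upwards were Ccl2, Nr4a2, Hspa1b, Rasgef1b, Atf3, Cd34, Nr4a1, Csf1r, Mcm5 and Lnpep, the last an aminopeptidase of endosomes with a part in cross-presentation, at 16.9, 19.0, 84.5 and 81.8 CPM. Ccl2 and Ccl3 were past 2-fold in both genotypes, yet Ccl2 had counts in only 1, 0, 1 and 9 cells.

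Of the 12 MHC class II genes, H2-Oa alone was past 2-fold lower in both genotypes. H2-Oa, a subunit of the H2-O molecule that restrains class II peptide loading, had 407, 352, 199 and 160 CPM, a ratio of 0.489 (0.372 to 0.636) in the Egr2fl/fl mice and 0.453 (0.354 to 0.582) in the Lyz2Cre/+.Egr2fl/fl mice. Ciita, the master regulator of MHC class II, had 280, 263, 139 and 135 CPM and ratios of 0.497 and 0.511. The class II genes themselves differed less, with ratios of 0.857 and 0.828 for H2-Aa and 0.831 and 0.771 for Cd74. The list of 12 had a median log2 ratio of -0.30 and -0.35. H2-D1, a class I heavy chain, had 1982, 1686, 1074 and 1250 CPM. None of the 16 cDC1 genes passed 2-fold in both genotypes in either direction, at a median of -0.38 and 0.02, and Irf8 had ratios of 0.748 and 0.998.

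By the naming rule, the 10 genes with the largest difference downwards were Xlr, Cyp8b1, Dnase1l3, Qpct, Ctla2b, Gm34084, Cldn1, Cnpy3, Ly6a and Tifab. Tifab, an inhibitor of TRAF6 signalling, was the most widely detected of them, in 21, 11, 10 and 30 of the 24, 11, 15 and 40 cells, and had 323, 340, 145 and 148 CPM, a ratio of 0.448 (0.325 to 0.608) in the Egr2fl/fl mice and 0.436 (0.339 to 0.564) in the Lyz2Cre/+.Egr2fl/fl mice. Xlr, a lymphocyte-regulated gene of the X chromosome, had 207, 222, 5.45 and 43.3 CPM, from 15, 6, 2 and 7 cells. Cyp8b1, known as the sterol 12-hydroxylase of bile acid synthesis in hepatocytes, had 135, 76.2, 2.73 and 25.02 CPM, from 13, 5, 1 and 9 cells, and no count in any Cd209a-positive cell. The summed hepatocyte genes in the same cells were at 16.9, 28.6, 8.18 and 12.5 CPM. Dnase1l3, a secreted DNase, had 164, 343, 57.3 and 115 CPM in the Xcr1 cluster and 101, 192, 3.02 and 3.85 CPM in the Cd209a-positive cells. Cnpy3, a chaperone of Toll-like receptors, had 117, 190, 51.8 and 74.1 CPM, a ratio of 0.444 (0.253 to 0.741) in the Egr2fl/fl mice and 0.389 (0.274 to 0.555) in the Lyz2Cre/+.Egr2fl/fl mice. These 5 genes were among the 15 of 2656 past 2-fold lower in both genotypes (0.565%), and they were picked from those with the largest difference.

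**Figure D4:**
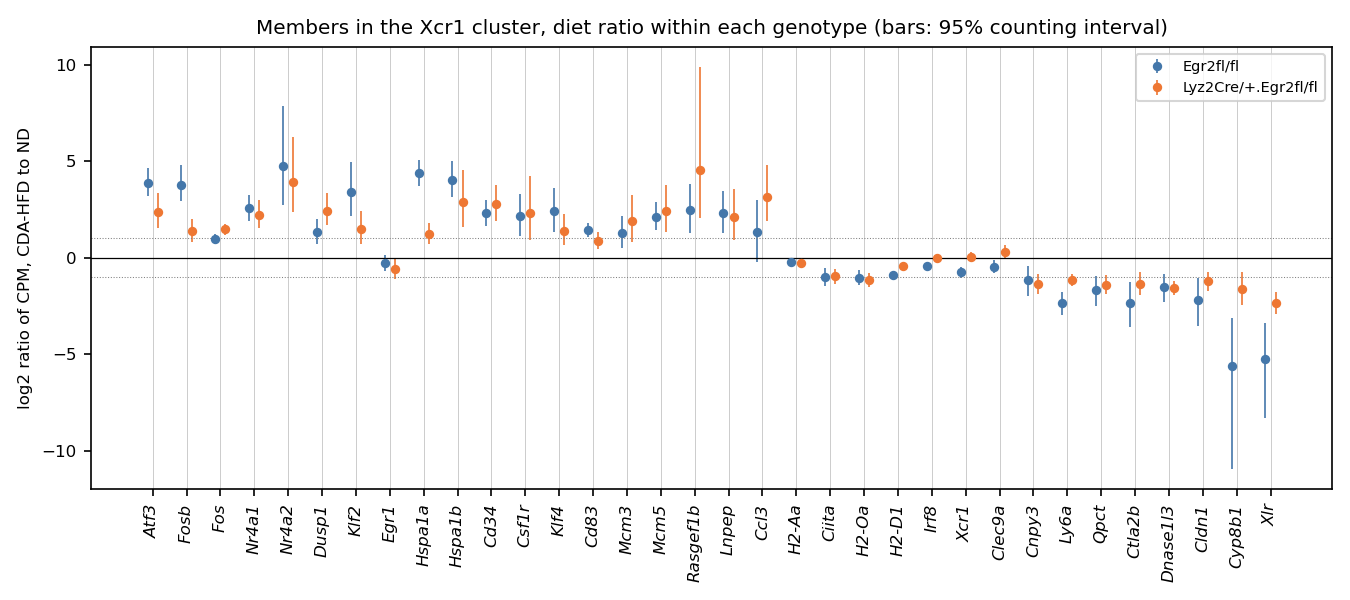
Ratio of CPM on CDA-HFD to that on ND in members of the Xcr1 cluster, on the log2 scale, for each genotype; each point is 1 mouse against 1 mouse, lines are 95% counting intervals and dotted lines mark 2-fold. Atf3, Nr4a1, Nr4a2 and Hspa1a were above 2-fold in both genotypes, H2-Aa and Irf8 lay near or slightly below 1, and Dnase1l3 and Xlr were below.

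Egr2, the targeted gene, was lower over all cells of the Lyz2Cre/+.Egr2fl/fl mice, at 13.3, 5.85, 49.4 and 18.2 CPM. Over the members it had 14.6, 1.97, 63.8 and 26.8 CPM, a genotype ratio of 0.135 (0.0596 to 0.270) on ND and 0.420 (0.337 to 0.521) on CDA-HFD. In the Xcr1 cluster it had 52.2, 19.0, 13.6 and 50.04 CPM, from 34, 6, 5 and 52 counts in 7, 2, 2 and 13 cells. The genotype ratio there was 0.365 (0.125 to 0.879) on ND and 3.67 (1.48 to 11.8) on CDA-HFD, so the cells labelled Lyz2Cre/+.Egr2fl/fl were below their control on ND and above it on CDA-HFD. Cd209a-positive cells had 28.9, 42.9, 61.4 and 34.5 CPM. Whether the counted part of the transcript lies inside the deleted part is not given in the sources used here, and a count from outside it would not check the deletion. Lyz2, whose locus drives Cre, had a count in 17, 4, 8 and 10 of the 24, 11, 15 and 40 cells, a lower bound because the authors' processing set low values of Lyz2 to 0.

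Genotype differences in the Xcr1 cluster were few. Of the 2656 genes, 15 were past 2-fold higher in Lyz2Cre/+.Egr2fl/fl on both diets (0.565%) and 13 lower (0.489%). By the naming rule, the genes on the higher side were Acox3, Echs1, Mff, Cdc40 and Mydgf. Acox3 and Echs1 encode enzymes of fatty acid oxidation in peroxisome and mitochondrion, and Mff a factor of mitochondrial fission. Acox3 had 23.0, 82.5, 30.0 and 86.6 CPM, a ratio of 3.58 (1.83 to 7.27) on ND and 2.89 (1.54 to 5.99) on CDA-HFD, and Mff 26.1, 73.0, 24.5 and 64.5 CPM, a ratio of 2.80 (1.43 to 5.57) on ND and 2.63 (1.30 to 5.99) on CDA-HFD. On the lower side were Serpina3g, Cast, Nrd1, Mcm7 and H2-T22. Cast, the calpain inhibitor calpastatin, had 76.8, 28.6, 92.7 and 33.7 CPM, a ratio of 0.372 (0.161 to 0.764) on ND and 0.363 (0.220 to 0.600) on CDA-HFD. H2-T22, a non-classical MHC class I gene, had 81.4, 31.7, 104 and 48.1 CPM, a ratio of 0.390 (0.177 to 0.774) on ND and 0.464 (0.298 to 0.728) on CDA-HFD. Of the genes in the lists, only the chemokine Ccl6 passed 2-fold in both diets, at 30.7, 69.8, 65.5 and 133 CPM. The 24 and 11 cells of the ND-fed mice and the 15 cells of the CDA-HFD-fed Egr2fl/fl mouse limit these ratios, and the 13 lower genes were 7 with TMM scaling and 22 with means over cells. A single cell gave 87.5% of the Cdc40 counts of the CDA-HFD-fed Egr2fl/fl mouse and all Mcm7 counts of the ND-fed Lyz2Cre/+.Egr2fl/fl mouse.

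Proliferating cells, with counts of at least 3 of Mki67, Top2a, Birc5, Ube2c and Cdk1, were 8.90% (5.27 to 13.9), 7.06% (3.70 to 12.0), 7.84% (4.12 to 13.3) and 15.3% (10.4 to 21.3) of the members, against 3.08%, 2.33%, 1.72% and 2.04% of all cells. With each cell thinned to 5000 counts, which left out 0, 0, 2 and 3 members, the shares were 7.85%, 4.12%, 5.96% and 8.89% of the members, against 2.65%, 1.92%, 1.21% and 1.47% of all cells. In the Xcr1 cluster 3 of 90 cells were proliferating, 0 of 24 and 0 of 15 in the Egr2fl/fl mice, which allow shares of up to 14.2% and 21.8% by the exact interval. The clustering had put cycling cells elsewhere: the cycling cluster 11 held 12, 2, 4 and 13 members with both Xcr1 and Clec9a, at a median of 41798 counts. Added to the Xcr1 cluster they were 33.3%, 15.4%, 21.1% and 24.5% of the sum, 31 of 121 cells. Of the members with both genes in any cluster, 18.2%, 14.3%, 13.8% and 27.3% were proliferating, and the Cd209a-positive dendritic cells gave 13.6%, 7.55%, 8.33% and 5.11%. Members with both genes had a median of 27927 counts and Cd209a-positive cells one of 16068, and at 5000 counts per cell the shares were 18.2%, 9.52%, 10.3% and 18.2% of them and 11.9%, 7.55%, 5.69% and 3.42% of the Cd209a-positive cells.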

How the data were processed

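Liver cells of 4 mice, 1 per group, were captured on the BD Rhapsody system and amplified by TAS-Seq. The authors mapped reads to the GRCm38-101 transcriptome, assigned barcodes to mice by hashtag and deposited counts per gene and barcode without normalization. The sources used here do not say if reads or molecules were counted. For 34 genes, H2-Aa, Cd74, Lyz2 and Clec4f among them, no value from 1 to 4 occurs, so low values had been set to 0. Of 15394 barcodes given to a mouse, 15384 had at most 25% mitochondrial counts. Barcodes the authors named doublets were left out, doublets within a mouse were not removed, and 7 hashtag columns of no mouse were not used.

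The members and gene lists were chosen with earlier results of these data known. Cells were clustered in Seurat 5.3.0 under R 4.3.3 as in the methods, which used Seurat 4.1.1 (mvp variable genes, 57 PCs, resolution 1.0), but without the 10 genes of the rule. Counts were summed per mouse and set of cells and given as CPM. Shares carry exact Clopper-Pearson intervals, differences Newcombe intervals, and ratios intervals from the exact binomial split, all at 95%. A gene past 2-fold had to be so in both genotypes, both diets or all 4 mice, and 0 counts were set to 3 counts per mouse for this purpose. Genes needed 200 counts over all members or, in the Xcr1 cluster, 100, a minimum chosen after the data were seen. Beside list genes, the text names genes with the largest smaller log2 ratio in 1 direction throughout. Against Cd209a-positive cells these are 10 a direction, outside the lists and with a count in at least 20% of cells of the higher side, and between diets or genotypes 10 or 5 a direction, in or outside the lists, if detected in 20% or more of those cells in any mouse. No p-value was computed, since groups had 1 mouse each and the sets compared within a mouse were chosen by their own genes. Alternatives were other marker, mature gene, hashtag and mitochondrial limits, thinning to 5000 counts, edgeR 4.0.16 TMM scaling, means over cells, other count minimums and the removal of proliferating members or members with markers of another class. The computation of ratios was tested on simulated data with known folds, apart from the results given here.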

Additional observations from a re-analysis of the deposited data

Results flagged for a closer look

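Diet ratios (CDA-HFD to ND) of 6 listed genes in members of the Xcr1 cluster pointed in opposite directions in the genotypes, with counting intervals that did not include 1 on either side. In the Egr2fl/fl mice and then the Lyz2Cre/+.Egr2fl/fl mice they were 1.40 and 0.600 for Batf3, 0.750 and 1.39 for Hspa8, 0.857 and 1.31 for Id2, 0.561 and 1.28 for Ifi205, 0.666 and 2.99 for Jund, and 0.617 and 1.82 for Txnip. Batf3 and Id2 are transcription factors of the cDC1 lineage, and Ifi205 is on the list of cDC1 genes. The 6 genes were sought among listed and named genes with at least 100 counts in these cells. The number of genes searched and the share over all genes are not given here, so 6 cannot be judged as many or few. With 1 mouse per group the difference between the genotypes was not tested.

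The share of members with both Xcr1 and Clec9a also differed in direction. Lyz2Cre/+.Egr2fl/fl minus Egr2fl/fl was -2.51 percentage points (-3.64 to -1.41) on ND and 0.396 (0.0903 to 0.709) on CDA-HFD. This difference between the diets was not tested.

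Barcodes that the authors named doublets had been left out, and the rule took 7.79% of them (108 of 1387, 6.43 to 9.32), against 4.53% of the cells given to a mouse. With both Xcr1 and Clec9a it took 2.02% of the doublets and 1.11% of the cells. The median depth of a doublet was 19028 counts. The part of doublets within a mouse in the members was not tested.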

How the results depend on the processing

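No paired analysis was possible because, between diets or genotypes, each group is 1 mouse. Members and Cd209a-positive cells of the same mouse were not tested as pairs, since both were chosen by genes of these cells. The Xcr1 cluster, and for most results the members with both genes, were set apart after the data had been seen, as were their alternatives. Values below follow the order ND Egr2fl/fl, ND Lyz2Cre/+.Egr2fl/fl, CDA-HFD Egr2fl/fl, CDA-HFD Lyz2Cre/+.Egr2fl/fl. The member share of all cells was 2.90%, 1.57%, 0.374% and 0.841% with at least 3 markers, 3.83%, 1.32%, 0.493% and 0.889% with both Xcr1 and Clec9a, 4.07%, 3.11%, 0.919% and 1.46% thinned to 5000 counts (2235 shallower cells left out), 39.9%, 45.3%, 0% and 0.178% for the cluster with most members, and 2.03%, 1.26%, 0.765% and 1.28% without members that had markers of another class. It was 1.39%, 0.692%, 0.255% and 0.647% in the Xcr1 cluster, and 2.09%, 0.818%, 0.323% and 0.857% with the cycling cells that had both genes added. At 90% own hashtag it was 12.8% and 3.15% in the ND-fed Lyz2Cre/+.Egr2fl/fl and the CDA-HFD-fed Egr2fl/fl mouse.

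Of the dendritic cells, members were 70.5%, 72.3%, 27.3% and 29.1% as reported by the rule, 38.5%, 27.8%, 5.13% and 10.4% with at least 3 markers, 48.8%, 49.3%, 14.7% and 17.4% when Cd209a alone defined the comparison cells, 51.6%, 50.6%, 15.4% and 22.2% thinned, 23.1%, 14.5%, 3.55% and 8.23% in the Xcr1 cluster and 45.2%, 24.4%, 6.65% and 11% with both genes. The proliferating share was 18.2%, 14.3%, 13.8% and 27.3% with both genes, and 0%, 0% and 5% in the Xcr1 cluster of the ND-fed Egr2fl/fl, CDA-HFD-fed Egr2fl/fl and CDA-HFD-fed Lyz2Cre/+.Egr2fl/fl mice. Thinned to 5000 counts, chosen after seeing the data, it was 8.89% in the CDA-HFD-fed Lyz2Cre/+.Egr2fl/fl mouse. The share of members in the Xcr1 cluster, 12.9%, was 51.7% with at least 3 markers and 45.6% with both genes.

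Counts of genes past 2-fold over all members moved from 212 higher and 401 lower between diets to 77 and 9 without members that had markers of another class, 37 and 65 with both genes, 331 and 748 at 50 counts and 124 and 245 at 500. Between genotypes 4 higher and 6 lower became 12 and 12 with means over cells, 41 and 37 at 50 counts and 0 and 3 at 500, and the lower ones 11 without proliferating members and 23 with both genes. Against Cd209a-positive cells, 389 higher became 44 and 133 lower became 72 without members that had markers of another class, and the higher ones 84 with both genes. In the Xcr1 cluster, 62 higher and 15 lower between diets became 163 and 56 at 50 counts and 13 and 9 at 200. Between genotypes 15 higher and 13 lower became 71 and 57 at 50 counts and 4 and 1 at 200, with 8 higher without cells that had markers of another class and 7 lower by TMM and 22 by means over cells. There the counts against Cd209a-positive cells stayed within 1.5 times under all alternatives run. Beyond the cells or genes that a setting leaves out, the cause was not tested.

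Of 3208 gene ratios recomputed, 3098 lay within the counting interval of the reported ratio, 106 outside it in the same direction and 4 turned. Without members that had markers of another class, a setting that removes cells by Timd4 and other Kupffer cell genes themselves, the log2 diet ratio in the Egr2fl/fl mice was 0.43 for Cd163 and 3.48 for Timd4. Cxcl10 against the Cd209a-positive cells of the ND-fed Lyz2Cre/+.Egr2fl/fl mouse was 0.69 (log2) with means over cells and 0.08 at 10% mitochondrial counts. The Xcr1 cluster had 11 and 15 cells in the mice with fewest.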
